A study of Mus musculus with 15 samples.

Results

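The nuclear receptors described here are 35 mouse genes of the ligand-regulated transcription factor family: the thyroid hormone, retinoic acid, retinoid X, liver X, xenobiotic, steroid and estrogen-related receptors, the REV-ERB and ROR receptors, the NR4A receptors, and several orphan receptors. They were chosen by name, and all 35 were found among the 24594 rows of the count table made from tissue. Their messenger RNA was compared between fetal intestinal epithelium and adult intestinal crypt cells, with 3 libraries in each group. The fetal cells came from the proximal intestine of C57Bl/6J embryos at E16.5 and were sorted as EpCAM+/DAPI-/CD31-/CD45-, that is, live epithelial cells without endothelial or leukocyte surface markers. The adult cells came from crypts of the proximal 20% of the small intestine of wildtype C57Bl/6J mice, were loosened with collagenase and were sorted as EpCAM+/DAPI-/Lin-/CD24mid. Neither group was treated, and the labels give no genotype for the embryos. The series also holds organoid libraries, fetal cultures and cultures with a doxycycline-driven human YAP transgene, which are not analysed here.

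Age and sorting gate changed together between the groups, so their parts in a difference cannot be told apart. The library kit of the fetal samples was not given in the sources used here, so whether it differed between the groups is not known. In bulk RNA, fewer cells of a type and less RNA per cell cannot be told apart either. The labels do not say how many animals stand behind the 3 libraries of a group, and a p-value here is set against library spread alone, some of which may be technical. The libraries held between 5795518 and 10538004 counts. A ribosomal RNA precursor gene, Rn45s, took between 7.32% and 10.7% of them. No 2 libraries of a group were alike within counting error (chi-square over its degrees of freedom, 4.83 to 9.44). The 9 markers of intestinal epithelium were detected in both groups and summed to 5178 to 5319 CPM (counts scaled to the same library total) in the fetal libraries and 7545 to 7956 in the adult ones. Of 20 mesenchyme and smooth muscle markers, 17 could be tested and all 17 were higher in the fetal libraries, where the list summed to 229 to 331 CPM against 13.0 to 21.2, with 8 of the 20 at 0 in every adult library. The 12 pancreatic exocrine markers summed to 879 to 1905 CPM in the fetal libraries, highest in replicate 2, and to 11.2 to 17.0 in the adult ones, where 4 of them were at 0.

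Nuclear receptors bind DNA through a zinc finger domain and recruit coactivators or corepressors according to the ligand they hold. Thyroid hormone, retinoic acid, liver X and xenobiotic receptors bind as heterodimers with the retinoid X receptors, whereas the steroid receptors act mostly as homodimers. In the intestine, receptors of the family are known for their part in lipid and bile acid handling, salt transport, drug metabolism and the maturation of the epithelium around weaning.

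After genes with few counts were left out, 27 of the 35 receptors could be tested, and 16 of them differed between the groups at an adjusted p under 0.05 in edgeR's quasi-likelihood test. Among all 13314 genes tested, 54.9% differed by the same rule, 29.0% higher and 25.9% lower in the fetal libraries. The 59.3% of receptors that differed was thus near the background of the table. Of the 16, 7 were higher and 9 were lower in the fetal libraries, and 11 tested receptors did not pass. The 3 fetal and the 3 adult values did not overlap for 16 receptors, against 62.3% of all genes tested. Differences of over 2-fold were found for 7 receptors, 25.9% of those tested, against 23.9% of all genes: Rora, Rarg and Nr4a3 were higher, and Nr1d2, Nr3c2, Esrrg and Nr3c1 were lower. The median log2 difference, fetal over adult, was -0.09 over the tested receptors and 0.01 over all genes.

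**Figure D1:**
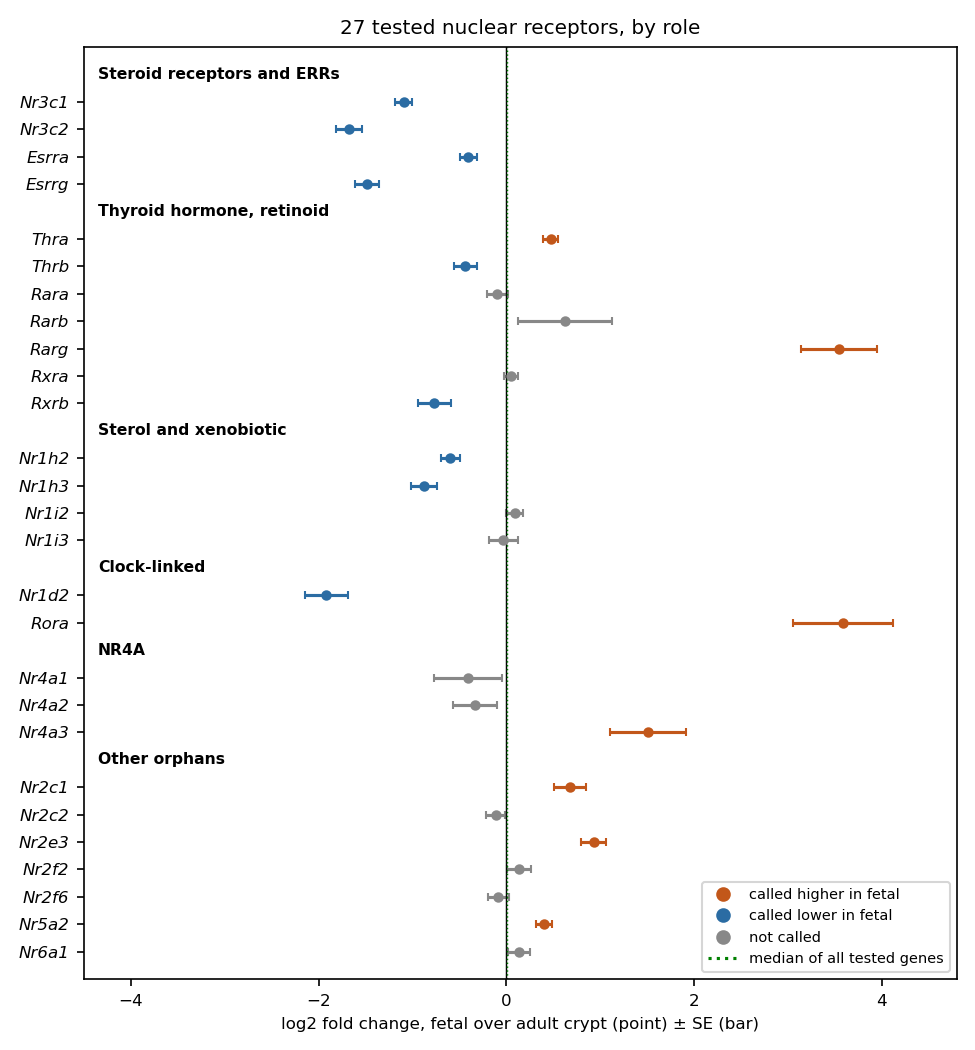
The log2 fold change, fetal over adult crypt, is plotted for the 27 tested receptors, with error bars of 1 standard error and colours for the call at an adjusted p under 0.05 in edgeR. The values run from -1.92 for Nr1d2 to 3.59 for Rora, and 11 receptors near 0 or with wide bars were not called.

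Most of the family's sites in DNA are built from the half-site AGGTCA, and the promoters of the receptor genes themselves were searched for it. RefSeq promoter windows on GRCm38.p6 (mm10) were matched for 32 of the 35 genes, giving 50 windows of the 250 bases before a start site; Nr3c1, Nr5a1 and Thra were not matched. The letters AGGTCA, on either strand, were found in 7 of the 50 windows, which is 14% and equal to the 14% of all 32851 windows. By gene, 7 of the 32 held a match, against 4260 of 27025 genes over all windows. Among the 16 receptors that differed, Nr3c1 and Thra had no window and 4 held a match. Their matching windows are printed 5′ to 3′ on the gene's strand, with the match in capitals, to show where the letters lie. A match is a description of the letters in this window only. Nr1d2 is read from chr14:18239107-18239356 on the minus strand, and its match begins 77 bases before the start site. Thrb is read from chr14:17660710-17660959 on the plus strand, with the match 184 bases before the start site. For Nr5a2, at chr1:136960449-136960698 on the minus strand, that distance is 64 bases. In Rarg, at chr15:102257523-102257772 on the minus strand, the match lies 225 bases before the start site on the opposite strand and so reads TGACCT.
Nr1d2: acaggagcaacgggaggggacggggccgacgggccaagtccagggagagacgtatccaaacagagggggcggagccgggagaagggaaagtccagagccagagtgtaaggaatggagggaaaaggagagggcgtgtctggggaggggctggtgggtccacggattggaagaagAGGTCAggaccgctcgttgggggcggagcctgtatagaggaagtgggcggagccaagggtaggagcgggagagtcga
Thrb: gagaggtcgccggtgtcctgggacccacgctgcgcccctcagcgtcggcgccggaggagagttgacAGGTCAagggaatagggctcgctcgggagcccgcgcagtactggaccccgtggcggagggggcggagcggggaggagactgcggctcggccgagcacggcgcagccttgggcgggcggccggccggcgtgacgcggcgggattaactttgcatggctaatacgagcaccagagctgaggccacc
Nr5a2: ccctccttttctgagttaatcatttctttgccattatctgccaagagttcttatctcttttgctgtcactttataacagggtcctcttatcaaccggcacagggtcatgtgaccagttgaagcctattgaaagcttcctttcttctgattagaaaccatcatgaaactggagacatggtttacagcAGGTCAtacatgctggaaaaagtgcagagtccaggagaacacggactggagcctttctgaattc
Rarg: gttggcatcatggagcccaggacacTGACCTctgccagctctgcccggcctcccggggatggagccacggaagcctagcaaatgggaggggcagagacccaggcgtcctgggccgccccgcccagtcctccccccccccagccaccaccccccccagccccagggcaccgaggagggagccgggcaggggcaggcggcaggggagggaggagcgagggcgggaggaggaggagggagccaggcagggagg

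The 2 corticosteroid receptors were both lower in the fetal libraries. Nr3c1, the glucocorticoid receptor, measured 149, 154 and 157 CPM in the fetal libraries and 330, 292 and 363 in the adult ones. The fetal values lay close together and all below the lowest adult value. Its log2 difference was -1.10 ± 0.09 (SE), a 2.14-fold lower level (edgeR adjusted p = 4.58e-07). Nr3c2 (chr8:76898083-77245012, plus strand), the mineralocorticoid receptor, measured 16.6, 16.7 and 18.3 CPM against 63.6, 45.1 and 56.9. Again no fetal library reached an adult one, and the log2 difference was -1.68 ± 0.14 (edgeR adjusted p = 3.64e-07). Esr1, Esr2 and Pgr, the estrogen and progesterone receptors, were not tested, with at most 12 counts over the 3 libraries of a group.

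Of 13 tested glucocorticoid targets and steroid enzymes, 4 were higher, 3 lower and 6 did not pass, with a median log2 difference of 0.16 against 0.01 over all genes. These counts were near the background of the table, where 29.0% of genes were higher and 25.9% lower. Klf9, a transcription factor gene induced by glucocorticoids and thyroid hormone, measured 8.61, 9.35 and 10.2 CPM in the fetal libraries and 81.7, 87.7 and 79.0 in the adult ones. It was thus several times lower in every fetal library, by -3.13 ± 0.12 on the log2 scale (edgeR adjusted p = 2.18e-10). Hsd11b2, which inactivates glucocorticoids and so protects the mineralocorticoid receptor, measured 0.748, 0.873 and 1.22 CPM against 11.1, 10.0 and 13.0 (log2 difference -3.53 ± 0.29, edgeR adjusted p = 3.69e-07). Hsd17b2, which inactivates sex steroids, was higher by 1.38 ± 0.14 on the log2 scale, and Errfi1, a brake on EGF receptor signalling, by 1.28 ± 0.17. Of 6 tested genes linked to the mineralocorticoid receptor, 1 was higher and 4 were lower (2 and 4 of 8 without the count filter). The higher one was Nedd4l, at 0.98 ± 0.10 on the log2 scale. This ubiquitin ligase removes the epithelial sodium channel from the membrane. Among the 4 lower genes were Atp1b1, the sodium pump's beta subunit, at -0.61 ± 0.09, Scnn1a, the alpha subunit of the sodium channel, at -1.13 ± 0.21, and Hsd11b2.

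The estrogen-related receptors, orphan receptors known for control of mitochondrial genes, were lower in the fetal libraries where they could be tested. Esrrg (chr1:187608510-188214885, plus strand) measured 34.9, 28.7 and 33.4 CPM in the fetal libraries against 83.4, 79.6 and 109 in the adult ones. All fetal values lay below all adult ones, and the log2 difference was -1.48 ± 0.13, or 2.80-fold lower (edgeR adjusted p = 6.69e-07). For Esrra the values were 74.1, 76.8 and 81.1 CPM against 106, 109 and 92.5. The groups were close but did not overlap, with a log2 difference of -0.41 ± 0.09 (edgeR adjusted p = 0.00213). Esrrb had 2 counts in each group and was not tested. Of 13 tested targets of these receptors and their coactivator PGC1, 7 were lower and 2 higher, with a median log2 difference of -0.22 (over all genes, 25.9% were lower and 29.0% higher). Uqcrc1 of respiratory complex III was lower by -0.72 ± 0.09, Sdha of complex II by -0.54 ± 0.08 and Cox5b of complex IV by -0.65 ± 0.10, all on the log2 scale. Pdk4, a kinase that restrains pyruvate oxidation, went the other way: it measured 48.4, 30.2 and 70.5 CPM in the fetal libraries and 6.89, 10.5 and 4.32 in the adult ones, a log2 difference of 2.78 ± 0.32 (edgeR adjusted p = 9.20e-06).

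The 2 thyroid hormone receptor genes differed in opposite directions. Thra measured 189, 176 and 171 CPM in the fetal libraries against 133, 126 and 127 in the adult ones. Every fetal value was above every adult one, by 0.47 ± 0.08 on the log2 scale (edgeR adjusted p = 2.40e-04). Of the exon length of Thra, 5.7% overlaps Nr1d1 on the opposite strand, and the strand setting of the counting is not given in the sources used here. Thrb measured 47.5, 38.9 and 54.3 CPM against 63.3, 69.2 and 58.4, so the highest fetal value lay just under the lowest adult one. Its log2 difference was -0.44 ± 0.12 (edgeR adjusted p = 0.00942). Of 8 tested thyroid hormone targets, transporters and deiodinases, 3 were higher, 3 lower and 2 did not pass, against 29.0% higher and 25.9% lower over all genes. The hormone-induced corepressor gene Hr measured 1.75, 1.62 and 2.72 CPM against 54.4, 54.8 and 73.6, a log2 difference of -4.86 ± 0.21 (edgeR adjusted p = 7.78e-10), and Klf9, given above, belongs to this list too. Ttr, which carries thyroid hormone in blood, was higher by 3.30 ± 0.14 on the log2 scale, and Me1, a lipogenic malic enzyme, by 2.71 ± 0.22.

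Of the retinoic acid receptors, Rarg was higher in the fetal libraries, and Rara and Rarb did not pass. Rarg (chr15:102234938-102257522, minus strand) measured 7.73, 7.98 and 9.0 CPM in the fetal libraries and 1.41, 0.339 and 0.346 in the adult ones. The fetal values were alike, and the adult ones rested on 12 counts in all against 222 in the fetal libraries. The log2 difference was 3.54 ± 0.40, 11.7-fold (edgeR adjusted p = 7.87e-06). It was 4.52 without adult replicate 1, the adult library with the highest value, and 3.21 without adult replicate 2. At so few counts the standard error is approximate and may be too small. The summed mesenchyme markers were 315, 331 and 229 CPM in the same fetal libraries and 13.0 to 21.2 in the adult ones; their part in the result was not tested. Rara measured 58.3, 47.6 and 46.7 CPM against 51.8, 52.9 and 58.3, with a log2 difference of -0.10 ± 0.11 (edgeR adjusted p = 0.482). Rarb stayed between 0.748 and 2.74 CPM in all 6 libraries, and 34.1% of its exon length overlaps Top2b on the opposite strand. Of 13 listed retinoic acid targets and ligand enzymes only 5 passed the count filter, and of these 2 were higher, 1 was lower and 2 did not pass the test. Among all genes tested, 29.0% were higher and 25.9% lower. Without that filter the picture differed: 12 could be tested, and 6 were called higher and 1 lower. Of all 19345 genes tested without it, 4592 were called higher and 3613 lower. Aldh1a1, which makes retinoic acid, was higher by 1.78 ± 0.24 on the log2 scale, and Tgm2, a transglutaminase gene induced by retinoic acid, was lower at -0.92 ± 0.10.

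The retinoid X receptors, partners of most receptors in this account, differed in 1 of 2 tested genes. Rxrb measured 35.9, 30.7 and 20.9 CPM in the fetal libraries against 46.5, 44.6 and 56.9 in the adult ones. The fetal values were spread but all lower, with a log2 difference of -0.77 ± 0.17 (edgeR adjusted p = 0.00212). Rxra, the more abundant of the pair per exon kilobase, ranged from 127 to 139 CPM over the 6 libraries, and its log2 difference was 0.05 ± 0.08 (edgeR adjusted p = 0.624). Rxrg had 4 fetal counts and none in the adult libraries.

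Both liver X receptors, which sense oxysterols, were lower in the fetal libraries. Nr1h2 (LXR beta) measured 47.5, 43.3 and 48.3 CPM against 75.8, 70.7 and 64.1. Nr1h3 (LXR alpha) measured 14.1, 14.2 and 13.6 CPM against 26.2, 28.3 and 22.5. In both genes every fetal value was under every adult one. The log2 difference was -0.60 ± 0.10 for Nr1h2 (edgeR adjusted p = 2.06e-04) and -0.88 ± 0.14 for Nr1h3 (edgeR adjusted p = 1.56e-04). Their 10 tested targets all differed, 8 higher and 2 lower, with a median log2 difference of 1.49 against 0.01 over all genes, of which 54.9% differed. The lower pair, Abcg5 and Abcg8, encode the sterol exporter of the apical membrane. Abcg5 measured 0.998, 1.75 and 1.03 CPM in the fetal libraries against 43.0, 29.7 and 27.3, a log2 difference of -4.73 ± 0.27 (edgeR adjusted p = 1.18e-08), and for Abcg8 the difference was -4.71 ± 0.26. The largest increases were in the fatty acid desaturases. Scd2 measured 4392, 4021 and 4815 CPM against 130, 65.7 and 129, a log2 difference of 5.35 ± 0.23 (edgeR adjusted p = 9.14e-10). Scd1 had 1019 fetal counts and 3 adult ones, a ratio of 221 with an exact 95% counting interval of 75.2 to 1071. So the sterol exporter genes and the desaturase genes, grouped in 1 list, lay far apart in direction.

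The xenobiotic receptors did not pass the test. Nr1i2 (PXR), which senses bile acids and drugs, measured 59.6, 67.6 and 68.7 CPM in the fetal libraries against 61.7, 62.9 and 59.8, a log2 difference of 0.09 ± 0.09 (edgeR adjusted p = 0.448). Nr1i3 (CAR) measured 38.4, 35.3 and 53.0 CPM against 49.3, 37.8 and 43.0, a log2 difference of -0.03 ± 0.15 (edgeR adjusted p = 0.881). The groups overlapped in both genes. Of the exon length of Nr1i3, 74.9% overlaps Tomm40l on the opposite strand, and Tomm40l measured 37.7, 33.7 and 46.0 CPM against 48.8, 37.0 and 41.0, so the value of Nr1i3 is uncertain. Of 16 tested genes that these receptors are known to induce, 10 were lower, 4 higher and 2 did not pass, against 25.9% lower and 29.0% higher over all genes. Their median log2 difference was -0.87. Of the 10, 3 had no fetal counts, and the median was the same with these set at their bounds. Abcc3, a basolateral exporter of bile acid and drug conjugates, measured 5.61, 5.24 and 13.5 CPM against 137, 119 and 166. Its log2 difference was -4.06 ± 0.26 (edgeR adjusted p = 3.03e-08), -4.68 without fetal replicate 3 and -3.83 without fetal replicate 2. Cyp3a11, a main drug-oxidising enzyme, had no fetal counts and 104 adult ones, at least 53.4-fold lower when the fetal sum is set to a floor of 3 counts. Among the genes that were higher were Gstm1, a glutathione transferase, at 1.52 ± 0.11 on the log2 scale and Abcc2, an apical exporter, at 1.31 ± 0.13.

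**Figure D2:**
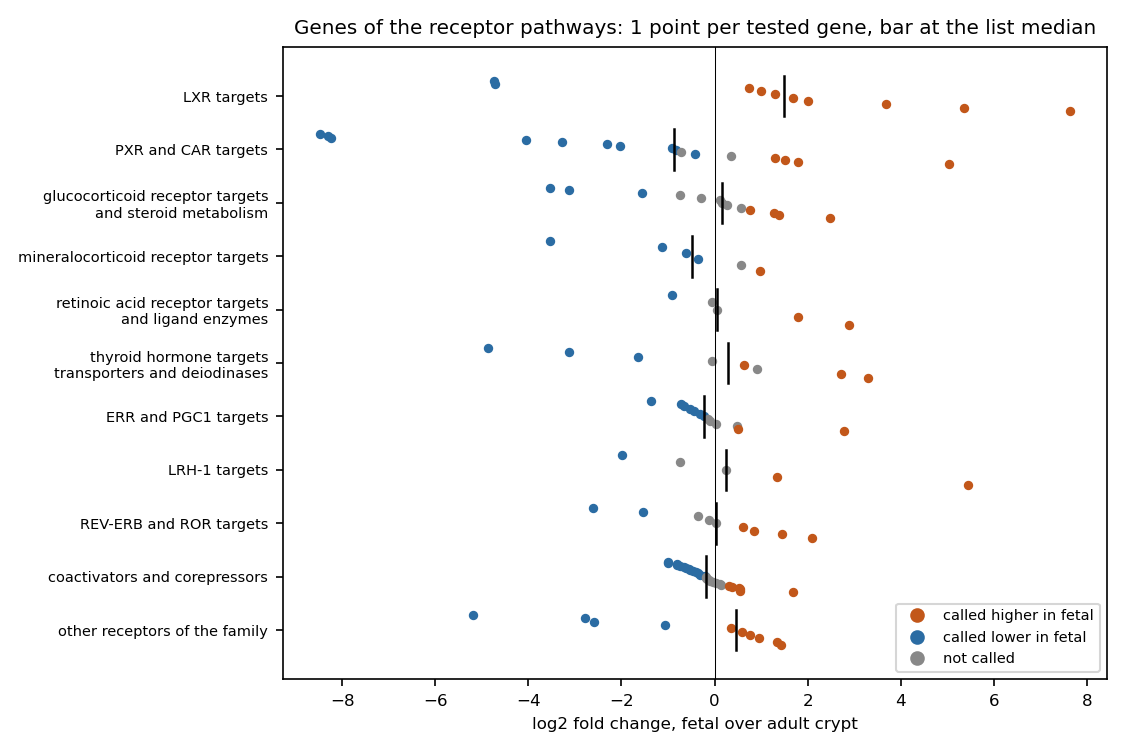
Each point is the log2 fold change, fetal over adult crypt, of 1 tested gene in a list of receptor targets or partners, coloured by its call in edgeR, with a black bar at the list median (genes without counts in a group are at fitted values, which are no bounds). The LXR targets have a median of 1.49 with the 2 exporter genes near -4.7, and the PXR and CAR targets have a median of -0.87.

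Nr1d2 and Rora, receptors that repress and activate the same clock elements, had the lowest and the highest log2 difference among the 27 tested receptors. These places were not firm. Without adult replicate 1, Rarg was at 4.52 and Rora at 3.25, and without adult replicate 3, Nr3c2 was at -1.654 and Nr1d2 at -1.645. Nr1d2 (chr14:18204056-18239106, minus strand), which encodes REV-ERB beta, measured 6.36, 6.98 and 9.84 CPM in the fetal libraries against 26.5, 22.6 and 39.8 in the adult ones. The adult values were spread, yet the lowest was well above the highest fetal one. The log2 difference was -1.92 ± 0.23, or 3.78-fold lower (edgeR adjusted p = 1.27e-05). Rora (chr9:68653404-69388246, plus strand) measured 3.49, 6.98 and 4.69 CPM against 0.177, 0.170 and 0.864. All fetal values were above all adult ones, which rested on 7 counts against 134. The log2 difference was 3.59 ± 0.53, or 12-fold (edgeR adjusted p = 8.33e-05). It was 4.74 without adult replicate 3 and 3.22 without adult replicate 2. Summed neuron and glia markers were 49.8, 70.5 and 55.9 CPM in the 3 fetal libraries and 5.19 to 6.45 in the adult ones. Summed enteroendocrine markers were 2090, 2846 and 2414 CPM in the fetal libraries and 1843 to 2230 in the adult ones. Taken singly, 7 of the 8 enteroendocrine markers were called higher and 1 lower, with a median log2 difference of 2.16. Over all genes 29.0% were higher and 25.9% lower. The part of either marker list in the result was not tested. Rorb had 26 fetal counts and none in the adult libraries, at least 5.63-fold higher against the same floor, and was left out of the test by the count filter.

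The labels used here give no hour of tissue collection. Of 9 tested clock genes and other targets of the REV-ERB and ROR receptors, 4 were higher, 2 lower and 3 did not pass, with a median log2 difference of 0.03 (over all genes, 29.0% were higher and 25.9% lower). Arntl, which encodes the clock activator BMAL1, measured 13.5, 11.3 and 14.2 CPM in the fetal libraries against 44.9, 37.0 and 31.3, a log2 difference of -1.53 ± 0.16 (edgeR adjusted p = 3.06e-06). Npas2, its partner, was lower by -2.62 ± 0.27 on the log2 scale. The clock repressors Per2 and Cry1 went the other way. Per2 measured 54.5, 64.2 and 69.0 CPM against 17.3, 13.7 and 12.8, a log2 difference of 2.10 ± 0.14 (edgeR adjusted p = 5.48e-08), and the log2 difference of Cry1 was 1.44 ± 0.19.

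The NR4A receptors are immediate early genes, induced within a short time of a stimulus. Nr4a1 measured 32.7, 35.9 and 45.0 CPM in the fetal libraries and 52.1, 82.5 and 16.6 in the adult ones. Nr4a2 measured 13.6, 13.7 and 16.4 CPM against 20.9, 23.8 and 10.7. In both genes adult replicate 2 was the highest of the 6 libraries and adult replicate 3 the lowest, so that the adult values enclosed the fetal ones. Neither passed, with a log2 difference of -0.41 ± 0.36 for Nr4a1 (edgeR adjusted p = 0.365) and -0.33 ± 0.24 for Nr4a2 (edgeR adjusted p = 0.251). Without adult replicate 3 both were called lower in the fetal libraries, Nr4a1 at -0.82 (edgeR adjusted p = 0.00181) and Nr4a2 at -0.61 (edgeR adjusted p = 0.00804), and without adult replicate 2 the difference of Nr4a1 was 0.14. Nr4a3 (chr4:48045078-48086447, plus strand) measured 4.24, 5.36 and 5.25 CPM against 2.83, 1.87 and 0.519. It was higher in all fetal libraries, by 1.51 ± 0.41 on the log2 scale (edgeR adjusted p = 0.00686), on 30 adult counts. That difference was 1.08 without adult replicate 3 and 2.03 without adult replicate 1.

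The same adult library was lowest in all 11 activity genes set beside the NR4A receptors, and adult replicate 2 was highest of the 6 libraries in 7 of them. Of these 11 genes 3 were called higher, 2 lower and 6 did not pass, against 29.0% higher and 25.9% lower over all genes. The calls changed with the libraries used: without adult replicate 3, 2 were higher and 6 lower. In that setting 3938 of all 13750 genes tested were higher and 3323 lower. Fos, a subunit of the AP-1 factor, measured 521, 414 and 455 CPM in the fetal libraries against 754, 1250 and 384, and its log2 difference of -0.78 ± 0.29 (edgeR adjusted p = 0.0345) was not called under 6 of the 12 other settings. Jun, its partner, measured 2522, 2368 and 2437 CPM against 1373, 1737 and 832, higher in every fetal library by 0.89 ± 0.19 on the log2 scale (edgeR adjusted p = 0.00158). Btg2, a growth-restraining immediate early gene, was higher by 0.94 ± 0.19, and Egr2, a zinc finger factor, by 0.65 ± 0.25, which was not called under 4 of the 12 other settings. The share of this spread in the values of Nr4a3 was not tested.

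**Figure D3:**
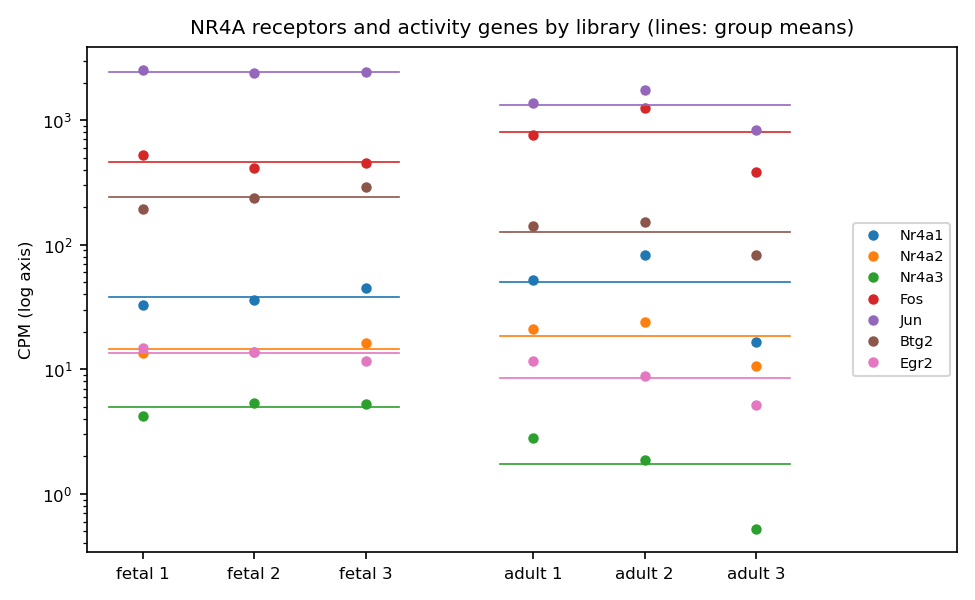
CPM on a log axis is plotted by library for the 3 NR4A receptors and for Fos, Jun, Btg2 and Egr2, 1 colour per gene, with lines at the group means. Adult replicate 3 is the lowest of the 6 libraries for each gene shown, from 0.519 CPM for Nr4a3 to 832 for Jun.

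Most of the remaining receptors have no settled hormone. Nr5a2 (LRH-1), a phospholipid-binding receptor of crypt and pancreatic cells, measured 117, 124 and 123 CPM in the fetal libraries against 97.2, 89.4 and 89.2. It was higher in every fetal library by 0.40 ± 0.08 on the log2 scale (edgeR adjusted p = 0.00106). The summed pancreatic exocrine markers were 900.5, 1905 and 879 CPM in these fetal libraries and 11.2 to 17.0 in the adult ones, and their part in the result was not tested. Of 5 tested genes listed here as LRH-1 targets, 2 were higher, 1 was lower and 2 did not pass. Over all genes, 29.0% were higher and 25.9% lower. Whether LRH-1 acts on the listed genes, Shh among them, was not tested. Shh, the hedgehog ligand, was higher at 5.44 ± 0.45 on the log2 scale (6.60 without adult replicate 1 and 4.86 without adult replicate 2). Nr0b2, the corepressor receptor SHP, was higher at 1.34 ± 0.31. Ccnd1, which encodes cyclin D1, was lower at -1.98 ± 0.12. Nr2e3, best known from photoreceptors, measured 26.4, 24.8 and 24.0 CPM against 14, 12.9 and 12.6, without overlap (log2 difference 0.93 ± 0.14, edgeR adjusted p = 7.26e-05). Nr2c1 (TR2) measured 21.8, 21.3 and 21.7 CPM against 17.1, 11.0 and 12.4, and all its fetal values were above the adult ones (log2 difference 0.68 ± 0.17, edgeR adjusted p = 0.00418).

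**Figure D4:**
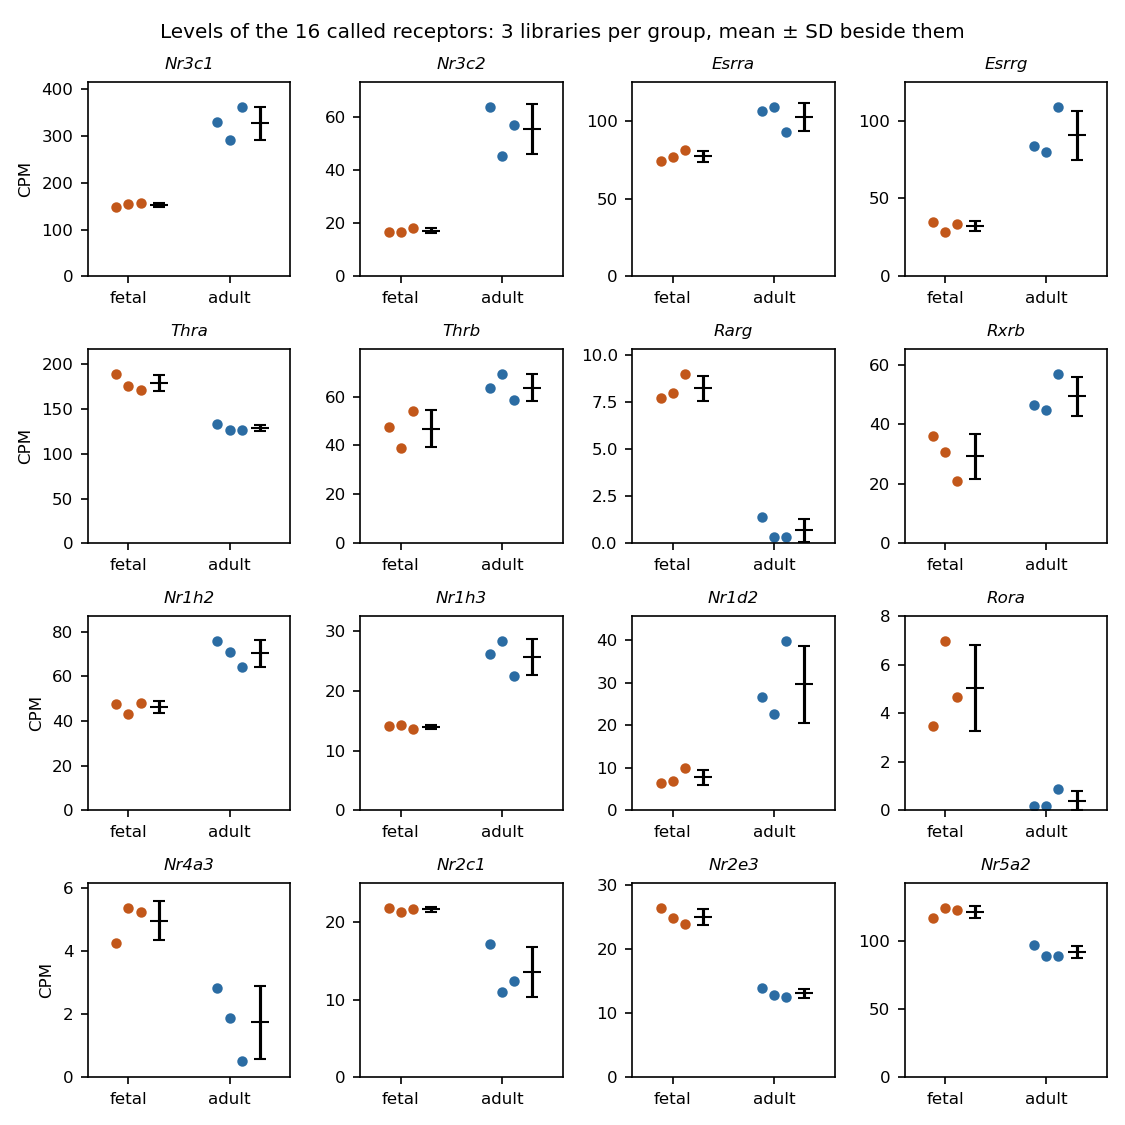
CPM is plotted for each of the 16 receptors that differed, 1 point per library, 3 fetal and 3 adult, with the mean and SD beside them and each panel on its own axis from 0. In every panel the 3 fetal points lie all above or all below the 3 adult points.

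Nr2c2 (TR4), Nr2f2 (COUP-TFII), Nr2f6 and Nr6a1 did not pass, and their groups overlapped. The log2 differences were -0.12 ± 0.10 for Nr2c2, 0.13 ± 0.12 for Nr2f2, -0.09 ± 0.11 for Nr2f6 and 0.14 ± 0.12 for Nr6a1 (edgeR adjusted p from 0.333 to 0.541). Among these orphans COUP-TFII is known from mesenchyme, and Nr2f2 ranged from 35.1 to 43.9 CPM in the fetal libraries and from 32.7 to 39.9 in the adult ones. Of their exon lengths, 54.4% of Nr2f6 overlaps Ocel1 and 30.7% of Nr2c2 overlaps Mrps25, both on the opposite strand, which leaves these 2 values uncertain. For Nr2f2 the overlap was 7.46%, with B130024G19Rik. Nr2f1 had 4 fetal counts and no adult ones, and Nr5a1, the steroidogenic factor of gonads and adrenal, had none in any library.

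Per kilobase of exon, the order of the receptors changed at the top. In the fetal libraries Thra led the 35 genes with 38.8 ± 2.01 CPM per kb (SD, n = 3), followed by Nr2f6 with 32.1 ± 4.63, Nr1i2 with 25.6 ± 1.94 and Rxra with 24.6 ± 0.764. The neighbours Nr1i2 and Rxra did not differ beyond their spread. In the adult libraries Nr3c1 led with 42.7 ± 4.62 CPM per kb, up from place 6 among the fetal libraries, where it had 20.0 ± 0.573. Nr2f6 followed with 34.0 ± 3.05 and Thra with 27.9 ± 0.767. The overlap with Ocel1 given above leaves the level and place of Nr2f6 uncertain in both groups, and the sum below includes it. Esrrg stood at place 17 with 5.21 CPM per kb in the fetal libraries and at place 9 with 14.6 in the adult ones. The sum over the 35 receptors was 292, 279 and 289 CPM per kb in the fetal libraries and 343, 331 and 329 in the adult ones, lower in every fetal library.

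Within 9 subfamilies, each isotype's share of the subfamily's CPM per kb was compared, 20 shares in all, of which those in a subfamily of 2 mirror each other. The groups did not overlap for 17 of the 20 shares. Among single genes, they did not overlap for 62.3% of all tested, and no background was computed for shares. With 3 libraries against 3 the exact two-sided permutation test can give no p below 0.1, and these 17 all gave p = 0.1, or 0.118 after adjustment over the 20, so none could pass 0.05. Among the retinoic acid receptors Rarg held 14% ± 2.22 (SD, n = 3) in the fetal libraries and 1.30% ± 1.17 in the adult ones, and Rara held 83.4% ± 2.37 against 96.8% ± 1.87. Thra held 85.9% ± 2.24 of the thyroid hormone receptors against 76.5% ± 1.67. The share of Esrra among the estrogen-related receptors was 77.2% ± 2.14 against 61.6% ± 6.09, and the rest was mainly Esrrg. Rxra held 77.0% ± 5.12 of the retinoid X receptors against 65.8% ± 3.54, and Nr3c1 held 88.3% ± 0.363 of the corticosteroid receptor pair against 83.4% ± 1.76. Thus the fetal libraries held larger shares of Rxra and Thra, while Rara held most of its subfamily in both groups. The shares of Nr4a1, Nr4a2 and Rarb overlapped between the groups.

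**Figure D5:**
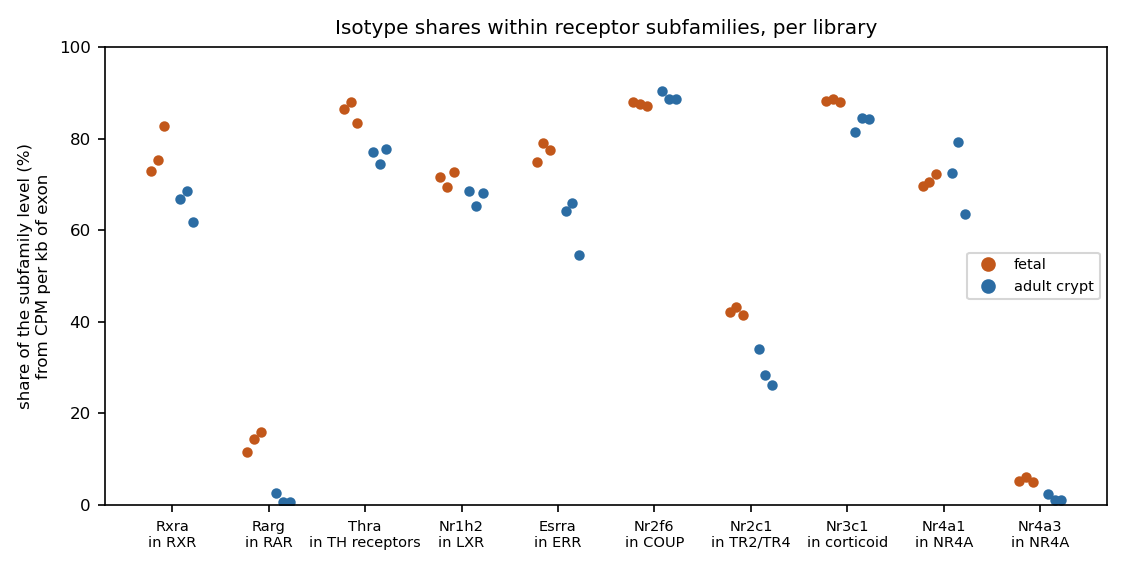
The share in percent of the subfamily's summed CPM per exon kb is plotted for 10 isotypes, 1 point per library, 3 fetal and 3 adult. Rarg takes 14% of the retinoic acid receptors on average in the fetal libraries and 1.30% in the adult ones.

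The rest of the family and its cofactors were set beside these receptors. The 10 tested receptors outside the 35 all differed, 6 higher and 4 lower in the fetal libraries, against 54.9% of all genes that differed. Vdr, the vitamin D receptor, measured 17.3, 15.7 and 15 CPM against 565, 465 and 711, a log2 difference of -5.18 ± 0.16 (edgeR adjusted p = 4.78e-11). That was the largest difference of any tested nuclear receptor here, and it stood beside lower levels of Ppard, a fatty acid sensor, at -2.77 ± 0.12, Nr1d1, REV-ERB alpha, at -2.60 ± 0.13, and Hnf4a, a receptor of gut identity, at -1.06 ± 0.09. Nr1h4, the bile acid receptor FXR, was higher at 1.44 ± 0.11, as were Pparg at 0.95 ± 0.18, Ppara at 0.76 ± 0.10 and Hnf4g at 0.35 ± 0.08. Nr1d1 and its member paralogue Nr1d2 were thus both lower in the fetal libraries.

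Of 29 coactivator and corepressor genes, 14 were lower, 6 higher and 9 did not pass, against 25.9% lower and 29.0% higher over all genes. Their median log2 difference was -0.19. Tbl1xr1, a corepressor exchange factor, was lower at -1.0 ± 0.08, Ncoa3, a p160 coactivator, at -0.80 ± 0.09, and Ncor1, the corepressor of unliganded receptors, at -0.66 ± 0.08. Ncor1 measured 421, 401 and 395 CPM in the fetal libraries against 640, 637 and 641, with little spread in either group (edgeR adjusted p = 1.18e-05). Ncoa4, an androgen receptor coactivator that also delivers ferritin for breakdown, was higher at 1.69 ± 0.17, on 21.8, 29.4 and 29.8 CPM against 8.66, 8.82 and 7.61. Summed erythroid markers were 31.6 to 55.6 CPM in the fetal libraries and 0.509 to 1.38 in the adult ones, and their part in the value of Ncoa4 was not tested.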

How the data were processed

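RNA-seq counts per gene of 3 fetal and 3 adult libraries were used as the authors deposited them. The labels' protocols name a SMARTer Pico stranded kit for total RNA for the adult cells; mm10 and edgeR are named per the submitters' processing notes. The aligner, counter, annotation and strand setting were not given in the sources used here. The deposited organoid table pairs its values with no gene names and was not used here.

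In R 4.3.3 with edgeR 4.0.16, filterByExpr, TMM factors and the quasi-likelihood test were run on all genes, with Benjamini-Hochberg adjustment and calls under 0.05. The unit of levels is CPM on the TMM-adjusted library size. A standard error is the log2 difference divided by the square root of F. Exon lengths came from GENCODE on GRCm38, and gene spans and promoters from RefSeq GRCm38.p6. The fit was tested on counts simulated at a single fixed spread between libraries, with changes planted only in genes above a minimum expected count. That test does not cover receptors with few counts. Counting intervals and floors of 3 counts cover counting error only. Of 24594 rows, 7 had no symbol, and they went through the count filter with the rest.

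Every receptor called at 1 CPM or more was described in full, and up to 4 called genes with the smallest p of each other list, besides the receptors set as partners, were named. 1 gene that this rule names is not reported here. The receptors and lists were chosen with earlier results of these data known. Alternatives were RLE factors, library size only, DESeq2 1.42.0, no count filter, Rn45s left out, a replicate block and each library left out.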

Additional observations from a re-analysis of the deposited data

How the results depend on the processing

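The same 16 receptors were called in the same direction under all 12 alternatives, with 7 to 8 receptors higher and 9 to 11 lower. The 11 arose without adult replicate 3, where Nr4a1 and Nr4a2 were added. Over all genes the calls ranged from 6397 to 7261 when a library was left out and reached 8205 without the count filter. Under library size only, 57.3% of calls were higher, against 52.8% with TMM, and the median over all genes moved by 0.05 on the log2 scale.

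With the replicate number as a block, 6886 genes were called, and 7 receptors were higher and 9 lower. Same-numbered libraries did not deviate together (correlations of -0.0707, -0.037 and -0.0969), and the block changed no receptor's call. With deviations taken from means of 3 libraries, this cannot show whether same-numbered samples share more than a number.

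Of the isotype shares, that of Nr4a1 changed to 2.81 percentage points higher in the fetal libraries without adult replicate 2, and that of Nr4a2 to 1.29 points higher without adult replicate 3; the cause was not tested. The difference was -5.08 points for Nr4a1 without adult replicate 3 and -6.55 for Nr4a2 without adult replicate 2. Rarg, Rora and Nr4a3 had at most 30 adult counts each, which limits the precision of their fold changes.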
